A study of Mus musculus with 6 samples.

Results

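Cell-cycle inhibitors and genes of the p53 and RB pathways were followed across the whole fracture callus. They were the CIP/KIP inhibitors Cdkn1a, Cdkn1b and Cdkn1c, the INK4 inhibitors Cdkn2a, Cdkn2b, Cdkn2c and Cdkn2d, and Trp53, Mdm2 and Rb1. These 10 genes were chosen by symbol from the gene tables, out of 52081 genes shared by the 6 libraries, and all 10 were measured in every library. Each library was a 10x 3′ single-cell library of callus tissue from a mouse femoral fracture, collected 14 days post-fracture (dpf) from mice 12 weeks old. The 3 CON libraries carry the genotype label wt, and the study's methods describe the control mice as Piezo1 f/f. The 3 CKO libraries carry the genotype label Col2CreERT; Piezo3-/-, whereas the methods describe Col2a1CreERT2; Piezo1 f/f mice, in which the recombinase is driven by the type II collagen promoter of chondrocytes. Per the methods, CON and CKO mice alike were given tamoxifen (75 mg/kg, once on each of 5 days starting on day 5 after fracture). The labels give 1 callus per library and do not say whether cells of several mice were pooled. The p-values between CKO and CON below measure the spread between these libraries. Those between cell types measure how far differences within a library agree across the libraries.

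Progression from G1 to S phase is driven by cyclin-dependent kinases that phosphorylate the retinoblastoma protein, encoded by Rb1, which otherwise holds E2F transcription factors inactive. INK4 proteins bind CDK4 and CDK6, whereas CIP/KIP proteins bind a wider range of cyclin–CDK complexes. Trp53 encodes the p53 transcription factor, Cdkn1a and Mdm2 are well-known p53 targets, and MDM2 in turn marks p53 for degradation. In growth cartilage, chondrocytes leave the cell cycle before they enlarge as hypertrophic chondrocytes (HTCs), and Cdkn1c has long been associated with this step.

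After filtering and removal of likely doublets, 41652 of 46944 barcodes were kept, with 3068 to 10025 cells per library and a median of 4847 to 9820 UMIs per kept cell. The cells were grouped into 18 cell types from marker genes, and each type is called X-like because the names rest on clusters rebuilt here. Of 18785 stromal-like cells, 6027 fitted no type, and 768 other cells fell outside every class. Levels are UMIs of a gene per 1000000 UMIs of that cell type in that library (CPM), given only where a library held at least 10 cells of the type. CKO replicate 3 stood apart from the rest: it held 578 CPM of Xist against 0.10 to 0.17 in the other libraries, and no UMI of the Y-linked genes Ddx3y or Eif2s3y, while the methods describe male mice. Results are therefore also given without CKO replicate 3 where its removal changed them. Libraries shared 4 to 36 cell barcodes per pair, at most 0.383% of the smaller library. Some types were thin: HTC-like cells numbered 14, 18 and 25 in CON replicates 2 and 3 and CKO replicate 2, and CKO replicate 3 held 410 of 609. CKO replicate 2 held only 47 chondrocyte-like cells. Piezo1 itself stood at 62.2, 56.6 and 59.4 CPM in the CON libraries and at 96.2, 48.2 and 45.3 in the CKO libraries, and none of 16 tests by cell type called it. Counts of 3′ ends do not show the loss of an upstream exon, so this is no check of the deletion.

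All 10 genes differed between cell types. A test of any difference among the 18 types, with the library as a block, called 10 of 10 over 102 library-by-type sums, with adjusted p from 4.21e-37 for Cdkn2d to 1.86e-11 for Cdkn2c (edgeR quasi-likelihood test). The same test called 98.9% of all 15295 genes, so that the calls set these genes apart from few others. The cell types were also defined by clustering the same cells, although the 10 genes were left out of the clustering. What distinguishes the genes is where each was high, and this is shown in the plot of mean levels by cell type. In each gene's order of the 18 types, the ranges of neighbouring types overlapped.

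**Figure D1:**
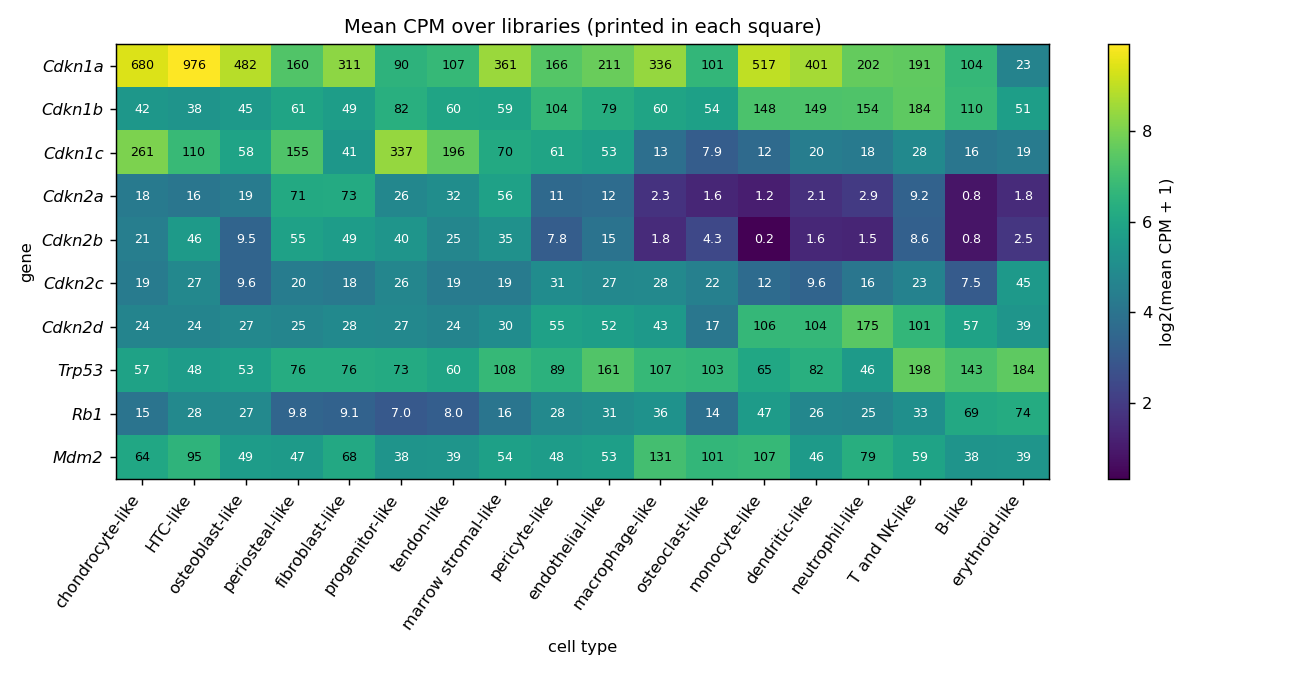
Mean CPM of each gene (rows) in each cell type (columns), over the 4 to 6 libraries with at least 10 cells of the type; colour is log2(mean + 1) and the mean is printed in each square. Cdkn1a was highest in HTC-like cells (976), Cdkn1c in progenitor-like cells (337), Cdkn1b and Trp53 in T and NK-like cells (184 and 198) and Cdkn2d in neutrophil-like cells (175).

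Cdkn1a, which encodes the broad CDK inhibitor p21, was highest in HTC-like cells. In HTC-like cells it stood at 976 ± 370 CPM (mean ± SD, n = 6 libraries), with 682 in the lowest library, 831 at the median and 1684 in the highest. In chondrocyte-like cells the mean was 680 ± 662 (n = 6), and the range ran from 292 through a median of 430 to 2017. The highest value of both types came from CKO replicate 2, the library with 47 chondrocyte-like cells. In those cells the summed immediate-early and stress genes stood at 1592 CPM, the lowest of any library, and the part of these few cells in the Cdkn1a value was not tested. Chondrocyte-like cells were above monocyte-like cells in 2 of 6 libraries, and without CKO replicate 2 their mean was 412 ± 107 (n = 5), below monocyte-like (552 ± 160) and osteoblast-like cells (516 ± 154), with HTC-like cells at 835 ± 144. Monocyte-like (517 ± 167, n = 6), osteoblast-like (482 ± 160, n = 6) and dendritic-like cells (401 ± 160, n = 5) followed when all libraries were averaged. Macrophage-like cells stood at 336 ± 97.7 (n = 6), fibroblast-like cells at 311 ± 182 (n = 6) and marrow stromal-like cells at 361 ± 141 (n = 6). The lower end of the order was made up of tendon-like (107 ± 49.1, n = 5), B-like (104 ± 52.5, n = 4), osteoclast-like (101 ± 22.5, n = 6), progenitor-like (90.4 ± 65.7, n = 6) and erythroid-like cells (23.4 ± 28.2, n = 4). Cdkn1a was thus high in HTC-like, monocyte-like and osteoblast-like cells with or without that library, and low in osteoclast-like and progenitor-like cells.

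Cdkn1a spans chr17:29090976-29100727 on the plus strand (GRCm38, GENCODE M21). Its upstream start region is printed because p53 acts through short response elements and Cdkn1a is a well-known p53 target. The window of 250 bases before to 50 after the most upstream annotated start, chr17:29090729-29091028 (plus strand, RefSeq, GRCm38.p6), reads 5′ to 3′ with the matches to the p53 decamer consensus in capitals.
Cdkn1a: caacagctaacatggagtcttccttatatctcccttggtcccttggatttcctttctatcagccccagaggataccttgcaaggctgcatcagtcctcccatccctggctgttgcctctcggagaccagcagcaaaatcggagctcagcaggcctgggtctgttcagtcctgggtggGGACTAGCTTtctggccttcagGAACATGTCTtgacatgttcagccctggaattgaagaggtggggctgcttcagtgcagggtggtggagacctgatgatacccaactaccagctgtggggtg
It held 2 matches, as the windows of Mdm2, Trp53 and Cdkn2d each held 1, searched on both strands. The table held 11 windows of 8 members, and 4 of the 11 held a match, against 8.36% of 32851 windows of all genes. A match is a description of letters and not a measured binding site. Cdkn1c and Rb1 had no window in the table.

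Cdkn1b, which encodes p27 and restrains cyclin E–CDK2, was highest in blood lineages, although not high in all of them. T and NK-like cells stood at 184 ± 51.8 CPM (n = 6), from 117 through a median of 182 to 264. Neutrophil-like cells followed at 154 ± 81.8 (n = 6; 68.5, 139 and 273), dendritic-like cells at 149 ± 51.2 (n = 5; 92.4, 175 and 194) and monocyte-like cells at 148 ± 46.2 (n = 6; 85.7, 159 and 208), the values in parentheses being the lowest, median and highest library. Among non-blood types, pericyte-like cells were highest, at 104 ± 28.3 (n = 6). Macrophage-like (60.4 ± 19.8, n = 6), osteoclast-like (54.4 ± 14.6, n = 6) and erythroid-like cells (50.7 ± 21.8, n = 4) stood below them. Chondrocyte-like (41.6 ± 13.5, n = 6) and HTC-like cells (37.9 ± 10.7, n = 6) were the lowest of the 18, the opposite end of the order from Cdkn1a.

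Cdkn1c, the imprinted inhibitor p57, was highest in stromal types, although not high in all of them. Progenitor-like cells stood at 337 ± 94.5 CPM (n = 6), from 181 through a median of 348 to 451. Chondrocyte-like cells stood at 261 ± 176 (n = 6), from 28.3 in CKO replicate 2 through a median of 279 to 494. Tendon-like (196 ± 94.1, n = 5), periosteal-like (155 ± 66.5, n = 6) and HTC-like cells (110 ± 99.3, n = 6; 45.1, 72.5 and 306) came next. Osteoblast-like and fibroblast-like cells stood at 57.7 ± 20.4 and 41.1 ± 17.6 (n = 6 each). Pericyte-like and endothelial-like cells stood at 60.8 ± 20.6 and 53.2 ± 24.1 (n = 6 each), and macrophage-like, monocyte-like and osteoclast-like cells between 7.87 and 13.1. In neutrophil-like cells Cdkn1c stood at 27.0, 4.38 and 4.50 in the CON libraries and at 32.2, 7.54 and 33.3 in the CKO libraries. Col2a1, a cartilage collagen that neutrophils should lack, stood in the same cells at 3229, 904 and 342 and at 2917, 15.5 and 2866, with the 3 libraries highest in Cdkn1c also the highest in Col2a1. The part of free RNA in the low Cdkn1c levels of blood cells was not tested.

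**Figure D2:**
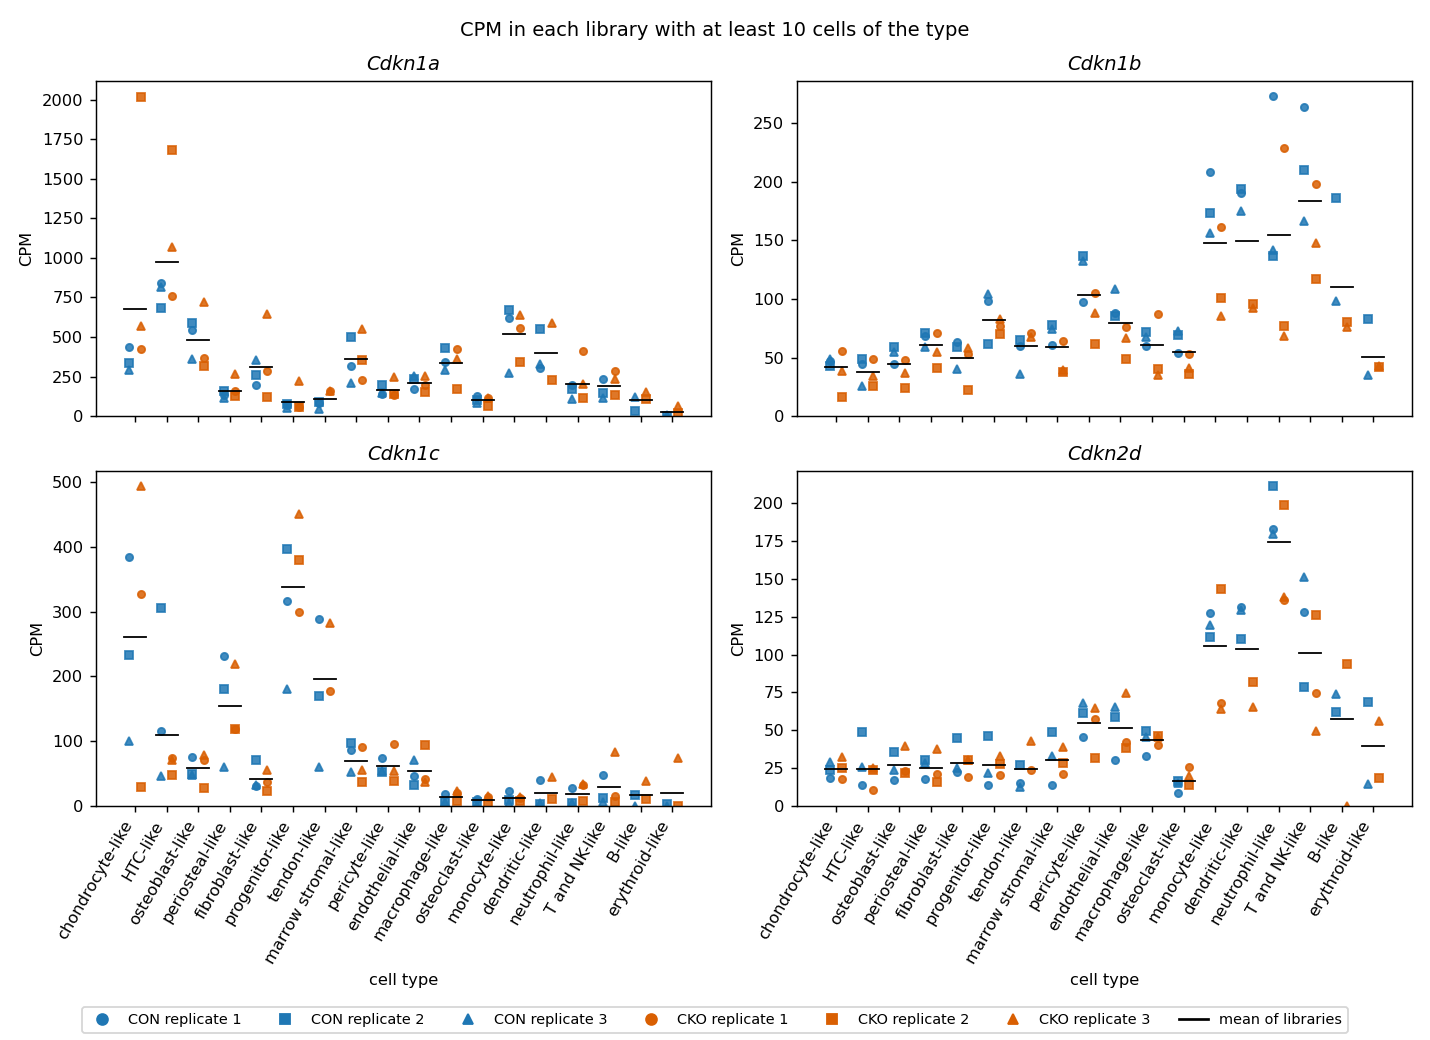
CPM of Cdkn1a, Cdkn1b, Cdkn1c and Cdkn2d (vertical axes, each starting at 0) in every cell type, 1 point per library with at least 10 cells, CON in blue and CKO in orange, replicate number by symbol, black line at the mean. CKO replicate 2 gave the highest Cdkn1a (2017) and the lowest Cdkn1c (28.3) of the chondrocyte-like cells.

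Cdkn2a and Cdkn2b lie side by side on chromosome 4, at chr4:89274471-89294653 and chr4:89306299-89311039 (both minus strand, GRCm38), with 11645 bases between them. Cdkn2a encodes the INK4 protein p16 and, from another first exon and reading frame, p19ARF, which inhibits MDM2. Its 2 annotated transcripts end 70 bases apart, so 3′ counts cannot tell p16 from p19ARF. Cdkn2b encodes p15. The start regions of both Cdkn2a transcripts and of Cdkn2b are printed because the pair was high in the same cell types from separate starts; each is the minus strand, 5′ to 3′, from RefSeq on GRCm38.p6, of chr4:89294570-89294869, chr4:89282143-89282442 and chr4:89310983-89311282 in turn.
Cdkn2a distal start: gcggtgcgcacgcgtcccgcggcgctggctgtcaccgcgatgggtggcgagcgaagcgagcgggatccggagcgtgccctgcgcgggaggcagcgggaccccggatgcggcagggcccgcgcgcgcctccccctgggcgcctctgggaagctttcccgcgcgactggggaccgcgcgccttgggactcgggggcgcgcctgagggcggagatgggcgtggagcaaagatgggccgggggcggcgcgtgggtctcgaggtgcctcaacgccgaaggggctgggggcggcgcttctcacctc
Cdkn2a proximal start: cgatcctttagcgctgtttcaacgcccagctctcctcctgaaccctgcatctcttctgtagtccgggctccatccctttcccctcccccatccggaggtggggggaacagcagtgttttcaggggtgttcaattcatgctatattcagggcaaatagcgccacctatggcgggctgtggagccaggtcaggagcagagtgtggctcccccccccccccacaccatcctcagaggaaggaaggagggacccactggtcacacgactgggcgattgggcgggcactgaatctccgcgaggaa
Cdkn2b: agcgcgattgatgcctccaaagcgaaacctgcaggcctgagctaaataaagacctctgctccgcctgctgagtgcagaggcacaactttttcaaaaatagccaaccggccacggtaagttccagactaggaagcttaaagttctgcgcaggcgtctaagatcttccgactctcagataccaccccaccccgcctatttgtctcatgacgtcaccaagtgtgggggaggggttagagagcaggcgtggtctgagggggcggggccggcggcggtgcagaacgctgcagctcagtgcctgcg
None of the 3 windows held the p53 decamer consensus, and their GC content was 77%, 60.3% and 57.7%.

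Both genes were highest in stromal types and had a mean under 10 CPM in each blood type. Cdkn2a stood at 72.9 ± 28.9 CPM in fibroblast-like cells (n = 6; 35.2, 84.6 and 98.1 as lowest, median and highest), at 70.8 ± 30.1 in periosteal-like cells (n = 6) and at 55.8 ± 20.7 in marrow stromal-like cells (n = 6). Cdkn2b stood at 55.1 ± 11.4 in periosteal-like cells (n = 6; 45.6, 48.8 and 70.7), at 48.7 ± 31.8 in fibroblast-like cells (n = 6) and at 45.8 ± 39.8 in HTC-like cells (n = 6). The wide spread of Cdkn2b in HTC-like cells rested on CON replicate 2 (74.6) and CKO replicate 2 (114), with the other libraries at 16.1 to 23.9. Chondrocyte-like cells held 18.4 ± 5.04 of Cdkn2a and 20.6 ± 4.41 of Cdkn2b (n = 6 each). In monocyte-like cells 10 UMIs of Cdkn2a and 3 of Cdkn2b were counted in all 6 libraries together, and in B-like cells 1 UMI of each. Over the means of the 18 types the levels of the pair on the log2 scale correlated with r = 0.94, the highest of any pair of the 10 genes. That correlation describes 18 types of the same libraries and is not a test.

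Cdkn2c, which encodes p18, had the smallest F of the 10 genes in the test of any difference between types (7.88, against 17.1 to 49.4 for the others). It ranged from 45.1 ± 24.8 CPM in erythroid-like cells (n = 4) and 30.8 ± 10.2 in pericyte-like cells (n = 6) to 9.58 ± 2.77 in osteoblast-like (n = 6) and 7.45 ± 8.73 in B-like cells (n = 4). Erythroid-like cells were also the type with the highest summed proliferation genes, 3619 CPM against 108 in osteoblast-like cells.

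Cdkn2d, which encodes p19INK4d, peaked in granulocytes. Neutrophil-like cells stood at 175 ± 31.2 CPM (n = 6), from 136 through a median of 182 to 211. Monocyte-like (106 ± 32.5, n = 6), dendritic-like (104 ± 29.2, n = 5) and T and NK-like cells (101 ± 39.4, n = 6) followed, and neutrophil-like cells were above monocyte-like cells in 6 of 6 libraries although the ranges overlapped. The stromal types lay between 24.0 and 30.5, and osteoclast-like cells were lowest at 16.5 ± 5.85 (n = 6).

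Trp53 and its partner Mdm2 were high in different cells. Trp53 stood at 198 ± 44.7 CPM in T and NK-like cells (n = 6; 141, 187 and 272), at 184 ± 104 in erythroid-like cells (n = 4) and at 161 ± 24.2 in endothelial-like cells (n = 6; 124, 163 and 189). Neutrophil-like cells (46.0 ± 11.6, n = 6) and HTC-like cells (48.0 ± 21.7, n = 6) were lowest. Mdm2 stood at 131 ± 50.4 in macrophage-like cells (n = 6; 55.4, 128 and 201), at 107 ± 61.6 in monocyte-like cells (n = 6), at 101 ± 45.2 in osteoclast-like cells (n = 6) and at 94.7 ± 12.2 in HTC-like cells (n = 6; 74.6, 95.9 and 109). The high end of Trp53 thus held lymphoid and endothelial cells and the high end of Mdm2 myeloid cells and HTC-like cells. CKO replicate 2 was the lowest library for Mdm2 in macrophage-like, monocyte-like and osteoclast-like cells, and CKO replicate 1 the highest.

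Rb1 was highest in erythroid-like (73.9 ± 54.0 CPM, n = 4) and B-like cells (69.2 ± 34.9, n = 4), then in monocyte-like (46.9 ± 16.9, n = 6) and macrophage-like cells (36.1 ± 9.98, n = 6). The fibrous stroma was at the bottom, with periosteal-like cells at 9.85 ± 3.11, fibroblast-like cells at 9.06 ± 1.97 and progenitor-like cells at 7.01 ± 3.27 (n = 6 each). Over the 18 types Rb1 and Cdkn2b were the most opposed pair (r = -0.75), and Cdkn1b and Cdkn2d (r = 0.82) and Cdkn1c and Cdkn2b (r = 0.85) ran together, again as a description over types that share libraries. Among 11052 genes compared over the 18 types, the closest in pattern (mean level on the log2 scale) were Insig1 (r = 0.89), Cnnm4 and Gm44667 for Cdkn1a, Cwc25 (0.94), Sf3b1 and E230001N04Rik for Cdkn1b, and Lrig3 (0.94), Spats2l and Tcta for Cdkn1c. For the INK4 genes they were Tln2 (0.96), Dpysl3 and Dlg5 for Cdkn2a, Dpysl3 (0.95), Ehbp1 and Ghr for Cdkn2b, Cfap298 (0.92), Ckap5 and Dis3 for Cdkn2c, and Gm45221 (0.92) and Ltb4r1 for Cdkn2d. For the rest they were Srpk1 (0.94), Ahsa1 and Tlk1 for Trp53, Hist1h1d (0.82), Serinc3 and Dbf4 for Rb1, and Ftl1-ps1 (0.88), Pgd and Eloa for Mdm2.

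Related cell types were then compared within libraries, with the library as a block. Fold changes are relative to TMM scaling, under which the median log2 fold change over all genes lay between -0.08 and 0.02. Many genes were called all the same, from 3563 of 9273 in osteoblast-like against fibroblast-like cells to 6272 of 9259 in cycling neutrophil-like cells. The mean TMM factor of the first cell type differed from that of the second by -0.05 to 0.10 on the log2 scale in 6 comparisons, by -0.35 in osteoblast-like against fibroblast-like cells and by 0.46 in cycling against other neutrophil-like cells. For the last 2, values scaled by library totals are given too.

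In cartilage, HTC-like cells were set against chondrocyte-like cells. The chondrocyte-like cells included a cluster of 1081 cells (median 812 UMIs) led by Col10a1, with Ihh among its 10 most raised genes. A chondrocyte-like cluster of 954 cells also had Col10a1 among those genes. Clusters of 2862, 1088 and 586 cells with Col10a1 among them had no named type and were left out. The comparison is thus between marker-named classes and not between hypertrophic and non-hypertrophic cells. Cdkn1a, Cdkn2c, Rb1 and Mdm2 were higher in HTC-like cells and Cdkn1c was lower. That is 4 of 10 members higher, against 17.0% of 11944 genes tested, and 1 of 10 lower, against 18.8%. Cdkn1a was higher by 0.76 ± 0.22 on the log2 scale (SE; adjusted p = 0.0146, higher in 5 of 6 libraries), the exception being CKO replicate 2. Cdkn2c was higher by 0.50 ± 0.13 (adjusted p = 0.00797) and Mdm2 by 0.51 ± 0.16 (adjusted p = 0.0232), each in 6 of 6 libraries. Rb1 was higher by 0.54 ± 0.17 (adjusted p = 0.0237, 6 of 6). Cdkn1c fell by 1.45 on the log2 scale (SE 0.36, adjusted p = 0.00615), lower in HTC-like cells in 4 of 6 libraries. Col10a1, the hypertrophic collagen that helped to define the HTC-like cells, had a median of 26200 CPM there and 4332 in chondrocyte-like cells.

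The calls in cartilage depended on which libraries were used and on their integration, and the part of the cell number in this was not tested. Without CKO replicate 3, which held 410 of the 609 HTC-like cells, none of the 5 calls held. The log2 fold changes were then 0.76 for Cdkn1a (adjusted p = 0.0546), 0.43 for Cdkn2c (adjusted p = 0.0935), 0.63 for Rb1 (adjusted p = 0.0558), 0.49 for Mdm2 (adjusted p = 0.103) and -1.03 for Cdkn1c (adjusted p = 0.0568). Cdkn2b, not called with all libraries, was the 1 member called, higher by 0.82 ± 0.24 (adjusted p = 0.0290). Without CON replicate 1, Cdkn1c was the 1 member called (-1.29 ± 0.43, adjusted p = 0.0437). Without integration of the libraries none of the 5 calls held, Cdkn1c differed by -0.06, and Cdkn2a was the 1 member called (-1.27 ± 0.37, adjusted p = 0.00721).

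The p53 target genes other than the members moved in cartilage mainly upward in HTC-like cells. Of 25 listed targets, 22 were tested, 9 were higher and 0 lower, with a median of 0.47 against 0.01 over all genes. Of all 11944 genes tested, 17.0% were higher and 18.8% lower. Plk2 was higher by 2.43 ± 0.17, Trp53inp1 by 1.65 ± 0.22 and Gadd45a, a growth-arrest gene, by 1.48 ± 0.34 on the log2 scale. Trp53 itself differed by -0.32 ± 0.15 and did not pass the test (adjusted p = 0.110). Of 13 p53 regulators and relatives, 10 were tested and 2 were higher, the kinase gene Hipk2 (1.10 ± 0.18) and the acetyltransferase gene Ep300 (0.35 ± 0.12). Of the cyclins and CDKs, 3 of 12 tested fell, Ccnd1 (-2.33), Cdk6 (-1.51) and Ccnd2 (-0.99), and 1 rose. Of the RB family and E2F genes, 2 of 9 tested were higher and 2 lower. The imprinted growth genes, a group to which Cdkn1c belongs, were lower in 8 and higher in 2 of 13 tested, among them H19 (-4.18), Mest (-2.83) and Meg3 (-2.77). The proliferation genes changed little, 1 of 12 being higher. These lists were not tested without CKO replicate 3 or without integration, the settings in which the member calls above did not hold.

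**Figure D3:**
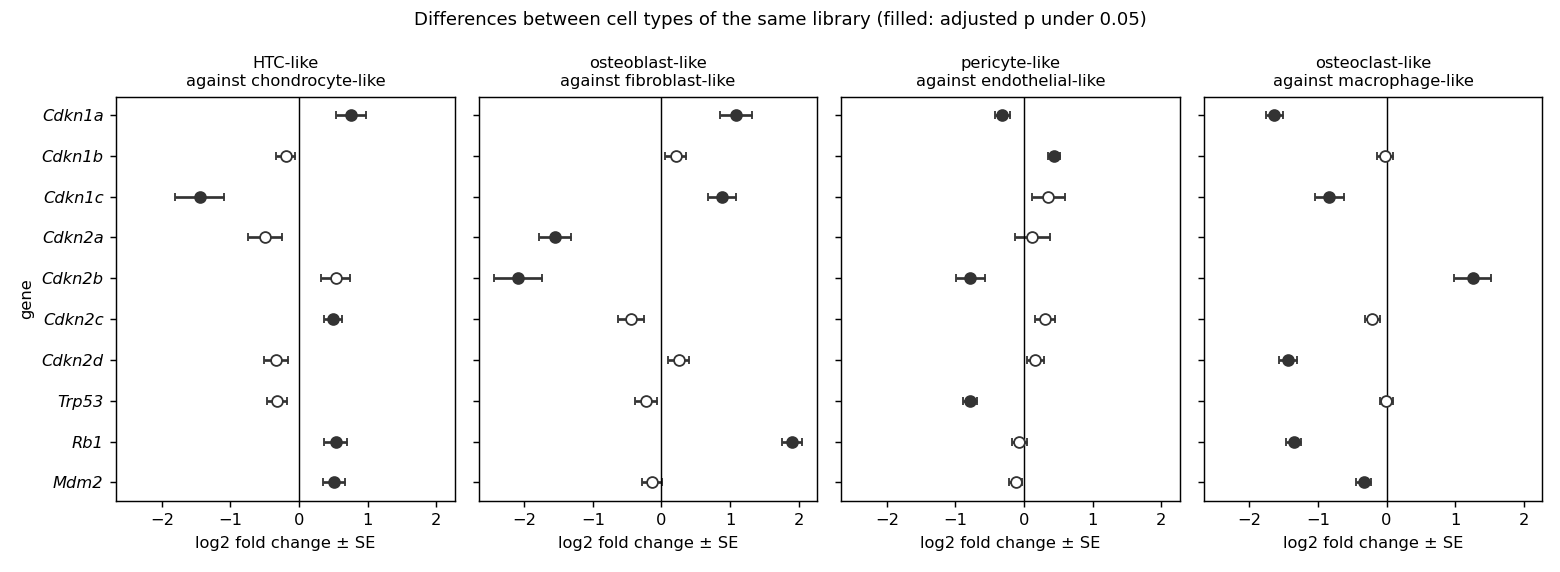
Log2 fold change (horizontal axes, point ± SE) of each gene (rows) in 4 comparisons of cell types within libraries, filled where the adjusted p was under 0.05. Cdkn1a was higher in HTC-like (0.76) and osteoblast-like cells (1.09) and lower in osteoclast-like cells (-1.63); Cdkn2a in osteoclast-like against macrophage-like cells was too low to test.

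In bone-forming stroma, osteoblast-like cells were set against fibroblast-like cells. The fibroblast-like cells were a single cluster led by Cxcl5, Saa3 and Mmp3, and CON replicate 3 held 742 of its 1125 cells. CKO replicate 2 held 1421 of 2204 osteoblast-like cells. Rb1 had the smallest p of the members: it was 27.4 ± 8.34 CPM in osteoblast-like and 9.06 ± 1.97 in fibroblast-like cells, a log2 fold change of 1.90 ± 0.15 (adjusted p = 6.28e-06, higher in 6 of 6 libraries). Cdkn1a (1.09 ± 0.23, adjusted p = 0.00418, 6 of 6) and Cdkn1c (0.88 ± 0.20, adjusted p = 0.00601, 5 of 6) were also higher. The INK4 pair went the other way: Cdkn2a fell by 1.55 (SE 0.24, adjusted p = 0.000527) and Cdkn2b by 2.09 (SE 0.35, adjusted p = 0.000924), each lower in 6 of 6 libraries. Members were thus higher in 3 of 10 cases, against 19.8% of 9273 genes, and lower in 2 of 10, against 18.6%. Scaled by library totals, the same 3 were higher, Rb1 by 1.57 ± 0.16, Cdkn1a by 0.74 ± 0.21 (adjusted p = 0.0159) and Cdkn1c by 0.54 ± 0.20 (adjusted p = 0.0489). Cdkn2a (-1.91 ± 0.24) and Cdkn2b (-2.46 ± 0.37) were again lower, and 5 were lower in all, since Cdkn2c (-0.81 ± 0.19), Trp53 (-0.59 ± 0.16) and Mdm2 (-0.49 ± 0.13) then also passed the threshold.

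The pathway genes in osteoblast-like cells did not follow Cdkn1a as a group. Of 20 p53 targets tested, 5 were higher and 10 lower, Phlda3 by -1.62, Tnfrsf10b by -1.43 and Zmat3 by -1.38. The immediate-early and stress genes, many of which respond to tissue dissociation, were higher in 9 of 12 and lower in 0, with Atf3 up by 2.27 ± 0.20 and Fos by 1.45 ± 0.17, all under TMM scaling; their part in the Cdkn1a difference was not tested. Of 12 cyclins and CDKs tested, 2 were higher and 5 lower, and of 6 proliferation genes tested, 3 were lower. Scaled by library totals, 1 of the p53 targets was higher and 11 lower (median -0.96 against -0.33 over all genes), and 6 of the stress genes were higher and 1 lower.

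In the vessel wall, pericyte-like cells held less Trp53 than endothelial-like cells in 6 of 6 libraries, 89.3 ± 16.6 against 161 ± 24.2 CPM, a fall of 0.79 on the log2 scale (SE 0.10, adjusted p = 8.19e-05). Cdkn2b fell by 0.78 (SE 0.21, adjusted p = 0.0108, 5 of 6) and Cdkn1a by 0.31 (SE 0.10, adjusted p = 0.0283, 6 of 6). Cdkn1b was higher by 0.44 ± 0.09 (adjusted p = 0.00178, 6 of 6). Members were higher in 1 of 10 cases, where 24.8% of 12767 genes were, and lower in 3 of 10, where 25.0% were. Of 23 p53 targets tested, 4 were higher and 6 lower in pericyte-like cells, Plk2 by -3.26 and Tnfrsf10b by -2.82. The proliferation genes were lower in 7 of 12, and pericyte-like cells held 607 CPM of that list against 848 in endothelial-like cells.

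In the resorbing lineage, 5 of 9 members tested were lower in osteoclast-like than in macrophage-like cells: Cdkn1a, Cdkn1c, Cdkn2d, Rb1 and Mdm2. Cdkn1a stood at 101 ± 22.5 against 336 ± 97.7 CPM, a fall of 1.63 on the log2 scale (SE 0.12, adjusted p = 4.74e-08). Cdkn2d fell by 1.44 (SE 0.13, adjusted p = 3.50e-07) and Rb1 by 1.36 (SE 0.10, adjusted p = 6.63e-08). Each of these was lower in 6 of 6 libraries. Mdm2 fell by 0.33 (SE 0.11, adjusted p = 0.0207, 6 of 6), a call lost without CKO replicate 3 (-0.24, adjusted p = 0.0841). Cdkn1c fell by 0.83 (SE 0.21, adjusted p = 0.00382), at 7.87 against 13.1 CPM and thus near the low levels described above for blood cells.

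Cdkn2b was higher in osteoclast-like cells by 1.25 ± 0.26 (adjusted p = 0.00102, 6 of 6), although at only 4.31 against 1.82 CPM. Trp53 differed by 0.00 ± 0.09, at 103 ± 10.1 against 107 ± 19.8 CPM, and did not pass the test. Of 9 members tested 1 was higher, against 28.0% of 11820 genes, and 5 were lower, against 27.9%. The p53 targets were higher in 5 and lower in 10 of 22, among them Gdf15 (-4.31) and Btg2 (-2.74). The immediate-early and stress genes were lower in 11 of 12, and the proliferation genes in 9 of 12; the macrophage-like cells included 624 cycling cells of 4675.

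Cycling cells were next compared with the other cells of the same class. Cycling clusters were those with markers such as Mki67, whose median was 393 to 591 CPM in cycling and 7.96 to 32.1 in other cells of the 4 classes. In stromal-like cells the cycling set was a single cluster of 870 cells without a named type, scoring highest for the fibroblast markers. The 17915 other stromal-like cells held all named stromal types, so that this comparison also set cell types apart. They also held an unnamed cluster of 452 cells with 4 cycling markers, led by S100a8, Bglap and Acp5. No hematopoietic progenitor-like cluster was named at this resolution, and the part of maturation stages in the neutrophil-like comparison was not tested. Cdkn2c rose in cycling cells of all 4 classes. Its log2 fold change was 2.08 ± 0.16 in stromal-like (83.2 against 18.7 CPM, adjusted p = 3.93e-06), 2.72 ± 0.14 in endothelial-like (93.3 against 14.8, adjusted p = 2.38e-10), 2.52 ± 0.21 in macrophage-like (81.0 against 12.2, adjusted p = 2.67e-06) and 1.81 ± 0.27 in neutrophil-like cells (33.9 against 7.57, adjusted p = 9.54e-05). It was higher in every library tested, 6 in the first 3 classes and 4 in neutrophil-like cells. This inhibitor of CDK4 and CDK6 was thus higher in the cells with more division genes in each class.

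Cdkn2d rose with it in 3 of the 4 classes and fell in the fourth. The rise was 1.83 ± 0.10 in stromal-like (adjusted p = 3.20e-07), 1.97 ± 0.11 in endothelial-like (adjusted p = 7.42e-10) and 1.54 ± 0.16 in macrophage-like cells (adjusted p = 1.28e-05), higher in 6 of 6 libraries each time. In neutrophil-like cells, where Cdkn2d was highest, cycling cells held 171 ± 43.4 and other cells 193 ± 24.5 CPM over the same 4 libraries, a fall of 0.66 on the log2 scale (SE 0.16, adjusted p = 0.00326, lower in 4 of 4). Scaled by library totals the difference was -0.20 ± 0.16 and did not pass the threshold. At a finer clustering, at which a hematopoietic progenitor-like cluster was named, it turned to 0.37.

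Trp53 also rose in cycling cells of each class, by 0.60 ± 0.12 in stromal-like (adjusted p = 0.00395), 0.44 ± 0.08 in endothelial-like (adjusted p = 0.000363), 0.80 ± 0.10 in macrophage-like (adjusted p = 3.49e-05) and 1.18 ± 0.19 in neutrophil-like cells (adjusted p = 0.000136). Its target Mdm2 did not follow. It fell by 0.44 in stromal-like (SE 0.08, adjusted p = 0.00246), by 0.51 in macrophage-like (SE 0.16, adjusted p = 0.0156) and by 1.18 in neutrophil-like cells (SE 0.15, adjusted p = 2.48e-05), and differed by -0.04 ± 0.10 in endothelial-like cells. The macrophage-like fall was not past the threshold without CKO replicate 3 (-0.46, adjusted p = 0.0561).

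**Figure D4:**
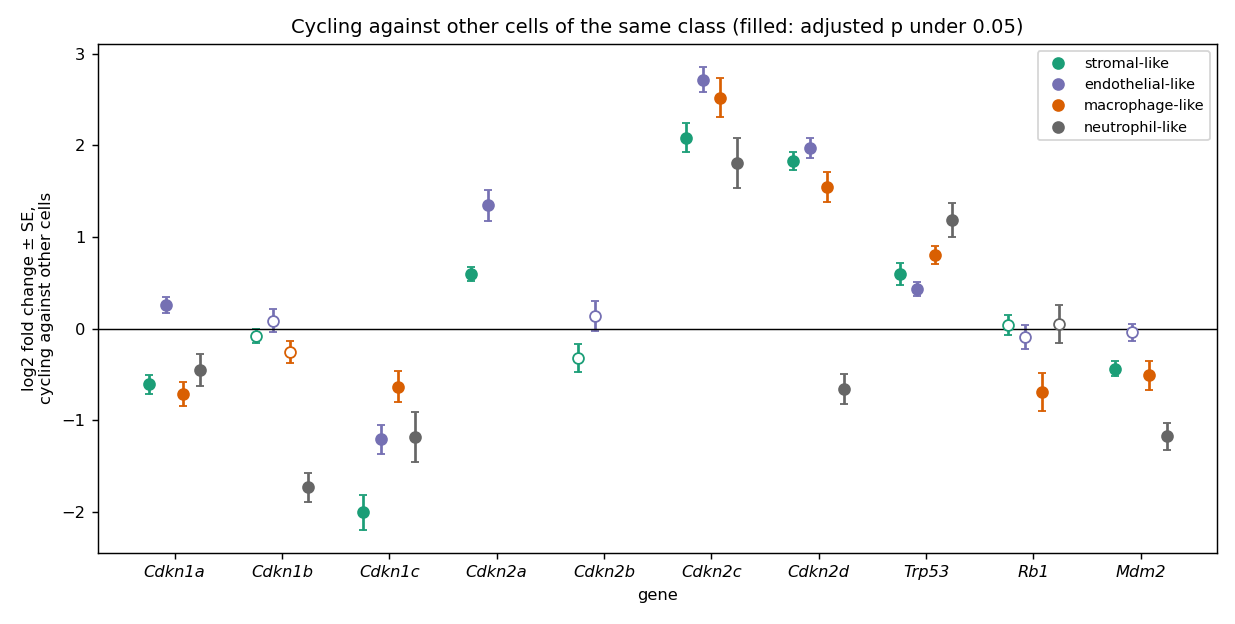
Log2 fold change (vertical axis, point ± SE) of each gene in cycling against other cells of the same class, in stromal-like, endothelial-like and macrophage-like cells (6 libraries each) and neutrophil-like cells (4 libraries), filled where the adjusted p was under 0.05. Cdkn2c lay between 1.81 and 2.72 in all 4 classes, whereas Cdkn1c lay between -2.00 and -0.63.

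Of the CIP/KIP genes, Cdkn1c fell in cycling cells of all 4 classes under TMM scaling, whereas Cdkn1a and Cdkn1b differed by class. Cdkn1c fell by 2.00 in stromal-like cells (SE 0.19, adjusted p = 2.38e-05), from 174 ± 110 in other to 40.3 ± 17.6 CPM in cycling cells. Fibroblast-like cells, the type whose markers the cycling stromal-like cluster scored highest for, stood at 41.1 ± 17.6 CPM of Cdkn1c. In endothelial-like cells Cdkn1c fell by 1.21 (SE 0.16, adjusted p = 1.94e-05). It fell by 0.63 in macrophage-like and by 1.18 in neutrophil-like cells, where it was near its lowest levels. With library totals the neutrophil-like value was -0.68 and did not pass the threshold. The part of free RNA in the macrophage-like and neutrophil-like falls was not tested. Cdkn1a fell by 0.61 in stromal-like (SE 0.11, adjusted p = 0.00176) and by 0.71 in macrophage-like cells (SE 0.13, adjusted p = 0.000674), lower in 6 of 6 libraries each time. In endothelial-like cells it rose by 0.26 ± 0.09 (adjusted p = 0.0297, 5 of 6), a call lost without CKO replicate 3 (0.24, adjusted p = 0.102). In neutrophil-like cells the log2 fold change was -0.45 ± 0.17 (adjusted p = 0.0334) but 0.01 ± 0.21 when scaled by library totals, and in CPM cycling cells were higher in 2 of 4 libraries. Cdkn1b fell in neutrophil-like cells, by 1.73 (SE 0.16, adjusted p = 1.91e-06; 60.1 ± 15.2 against 155 ± 74.4 CPM, lower in 4 of 4 libraries), and differed by -0.25 to 0.09 in the other classes without passing the test.

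Cdkn2a rose in the cycling cells of the classes where it could be tested. It went from 34.5 ± 9.84 to 55.7 ± 16.3 CPM in stromal-like cells (0.60 ± 0.07, adjusted p = 0.000138) and from 9.53 ± 3.89 to 25.2 ± 11.6 in endothelial-like cells (1.35 ± 0.17, adjusted p = 1.19e-05), higher in 6 of 6 libraries each time. Among the named stromal types, Cdkn2a stood at 72.9 CPM in fibroblast-like, 70.8 in periosteal-like and 55.8 in marrow stromal-like cells. It stood at 31.5 in tendon-like and 26.2 in progenitor-like cells, and at 16.1 to 18.7 in osteoblast-like, chondrocyte-like and HTC-like cells. The part of this mix in the stromal-like rise was not tested. Cdkn2b did not pass the test in stromal-like or endothelial-like cells. Rb1 fell by 0.69 in macrophage-like cells (SE 0.21, adjusted p = 0.0138), a call lost without CKO replicate 3 (-0.60, adjusted p = 0.0558). In neutrophil-like cells Rb1 differed by 0.05 and did not pass the test under TMM scaling, but was higher by 0.50 ± 0.20 (adjusted p = 0.0408) when scaled by library totals.

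Members were higher in 4 and lower in 3 of 10 in cycling stromal-like cells (16.4% and 18.3% of 14940 genes), higher in 5 and lower in 1 of 10 in endothelial-like cells (18.4% and 20.6% of 11128), higher in 3 and lower in 4 of 8 tested in macrophage-like cells (29.5% and 29.4% of 10897), and higher in 2 and lower in 5 of 8 tested in neutrophil-like cells (33.4% and 34.4% of 9259). Scaled by library totals, 3 were higher in neutrophil-like cells, Cdkn2c (2.26 ± 0.28), Trp53 (1.64 ± 0.21) and Rb1, and 2 were lower, Cdkn1b (-1.28 ± 0.18) and Mdm2 (-0.72 ± 0.16). The change with cycling itself differed between the 4 classes for 8 of 10 members, whereas it did so for 53.7% of 14766 genes. It did not pass that test for Cdkn2c (adjusted p = 0.119) or Cdkn2b (adjusted p = 0.104).

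The pathway lists moved with cycling as follows. Of 12 RB family and E2F genes, 11 rose in stromal-like and 11 in macrophage-like cells, 9 in endothelial-like and 9 of 11 tested in neutrophil-like cells, with E2f8 up by 2.90 to 4.49. Of 17 cyclins and CDKs, 13 or 14 rose and 1 fell in each class, and all 12 proliferation genes rose in each; many of these genes served to define the cycling clusters. Among the p53 regulators, Chek1, a checkpoint kinase gene, rose by 2.28 to 2.79, and 4 or 5 of 11 tested rose in each class. Of the p53 targets, 7 of 24 fell and 5 rose in stromal-like cells, with a median of -0.07 against -0.08 over all genes. The counts were 7 and 2 of 23 in endothelial-like cells (median -0.19 against -0.06), 10 and 1 of 22 in macrophage-like cells (-0.46 against -0.04) and 12 and 4 of 18 in neutrophil-like cells (-0.94 against -0.02). When scaled by library totals, 8 fell and 6 rose in neutrophil-like cells, with a median of -0.48 against 0.44 over all genes, and 6 and 5 in stromal-like, 8 and 2 in endothelial-like and 10 and 3 in macrophage-like cells. Btg2, an antiproliferative target, fell by 0.67 in stromal-like, 0.80 in endothelial-like and 3.08 in neutrophil-like cells. The immediate-early and stress genes fell in 9 to 11 of 12 in each class and rose in none under TMM scaling. With library totals 7 to 11 fell in each class and 1 rose in neutrophil-like cells. The 2 tested genes that overlap rRNA fell in all but 1 of these tests. Imprinted growth genes fell in 6 and rose in 1 of 15 in stromal-like cells, Dlk1 by 1.90 and Meg3 by 1.07. In macrophage-like cells 5 fell and 1 rose of 10, in neutrophil-like cells 6 and 1 of 8, and in endothelial-like cells 2 and 1 of 11. H19 fell by 1.30, 1.76 and 0.64 in these classes in turn. With library totals, 4 fell and 1 rose in macrophage-like cells, and 3 fell and 2 rose in neutrophil-like cells. Cycling cells also held more UMIs per cell, with medians of 16231 to 57512 against 1241 to 12755 in other stromal-like cells. The part of stress genes, depth, the mix of stromal types and the maturation stages of neutrophil-like cells in the differences of the members was not tested.

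The comparison of neutrophil-like with hematopoietic progenitor-like cells had no value at the chosen resolution, because no cluster met the marker rule for progenitors. At the finer resolution, over 4 libraries, neutrophil-like cells held more Cdkn1b (1.64 ± 0.17), Mdm2 (1.34 ± 0.16), Cdkn2d (1.30 ± 0.14), Cdkn1c (1.13 ± 0.28), Rb1 (0.76 ± 0.20) and Cdkn1a (0.38 ± 0.15) and less Trp53 (-1.17 ± 0.16), with 7 of 8 tested past the threshold. These were 6 of 8 higher, against 33.6% of 9394 genes, and 1 of 8 lower, against 34.8%. In cycling against other neutrophil-like cells at the chosen resolution, Cdkn1b (-1.73), Mdm2 (-1.18), Cdkn1c (-1.18), Cdkn2d (-0.66), Cdkn1a (-0.45) and Trp53 (1.18) had the opposite sign. Rb1 (0.05) and Cdkn2c (1.81, against 0.08 at the finer resolution) had the same sign. How far the cycling neutrophil-like cells were hematopoietic progenitors was not tested.

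Finally, the CKO libraries were compared with the CON libraries within each cell type. No member passed the test in any of 158 tests over the 10 genes and 18 types; the smallest adjusted p was 0.736 (edgeR quasi-likelihood test). At an unadjusted p under 0.05 there were 11 of the 158 tests, 7 of them with CKO higher, and DESeq2 called 0 with 8 at an unadjusted p under 0.05. The share of all gene tests under that unadjusted cutoff is not given here, so these counts are not read as a result. Over all genes 1 of 175058 tests was called (0.000571%). Cdkn1a in chondrocyte-like cells stood at 439, 338 and 292 CPM in CON and at 422, 2017 and 570 in CKO, so that the groups overlapped; the log2 fold change was 1.55 ± 0.57 (adjusted p = 1.00). In HTC-like cells Cdkn1a stood at 843, 682 and 819 in CON and at 762, 1684 and 1067 in CKO. Both thus had their highest value in CKO replicate 2, with 47 and 25 cells.

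In the 14 types with 3 libraries a group, 12 of 130 member tests had groups that did not overlap. CKO lay above CON in 4 of these, as in 3.17% of 149783 gene tests, and below in 8, as in 4.37%. Cdkn2a was above in 3 types. In fibroblast-like cells it stood at 39.4, 74.6 and 35.2 in CON and at 95.6, 98.1 and 94.6 in CKO (log2 fold change 1.01 ± 0.34, unadjusted p = 0.0137, adjusted p = 1.00). In endothelial-like cells it stood at 5.15, 7.20 and 12.5 and at 17.3, 17.1 and 14.3 (1.00 ± 0.34, unadjusted p = 0.0175, adjusted p = 0.808). In macrophage-like cells it stood at 1.12, 0.901 and 1.56 and at 3.20, 3.52 and 3.77, which is near the lowest level of the gene. Cdkn2b was the fourth, in fibroblast-like cells, at 23.9, 28.6 and 28.5 against 32.3, 86.5 and 92.6. Below CON lay Rb1 in marrow stromal-like, monocyte-like, neutrophil-like and pericyte-like cells, Cdkn1b in endothelial-like and osteoclast-like cells and Mdm2 in endothelial-like and progenitor-like cells. Cdkn1b in osteoclast-like cells stood at 53.7, 69.5 and 72.5 in CON and at 53.4, 36.4 and 40.7 in CKO (-0.57 ± 0.21, unadjusted p = 0.0251, adjusted p = 0.994).

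Across types, Cdkn1b had a log2 fold change above 0 in 1 of 18, with a median of -0.49, and in 0 of 14 without CKO replicate 3 (median -0.43). Cdkn1a had a median of 0.35 and was above 0 in 13 of 17 types, but without CKO replicate 3 its median was -0.18 and 5 of 14 were above 0. Cdkn2a was above 0 in 10 of 11 (median 0.54; 6 of 9 and 0.34 without CKO replicate 3), and Rb1 in 2 of 17 (median -0.31; 3 of 13 and -0.21 without it). Cell types of 1 library share its tissue and processing, so these counts are descriptions and not tests. Replicate 1 of both groups was counted with another Cell Ranger version than replicates 2 and 3. Cdkn1b in neutrophil-like cells stood at 273 and 229 CPM in replicate 1 and at 68.5 to 142 in the others. Of the neutrophil-like cells, 2 of 45 and 5 of 207 were cycling in CON and CKO replicate 1. In CON replicates 2 and 3 and CKO replicates 2 and 3, 244 of 2041, 269 of 926, 193 of 1107 and 122 of 685 were. The part of the version or of this mix in the Cdkn1b values was not tested. Without replicate 1 of both groups no member was called either.

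**Figure D5:**
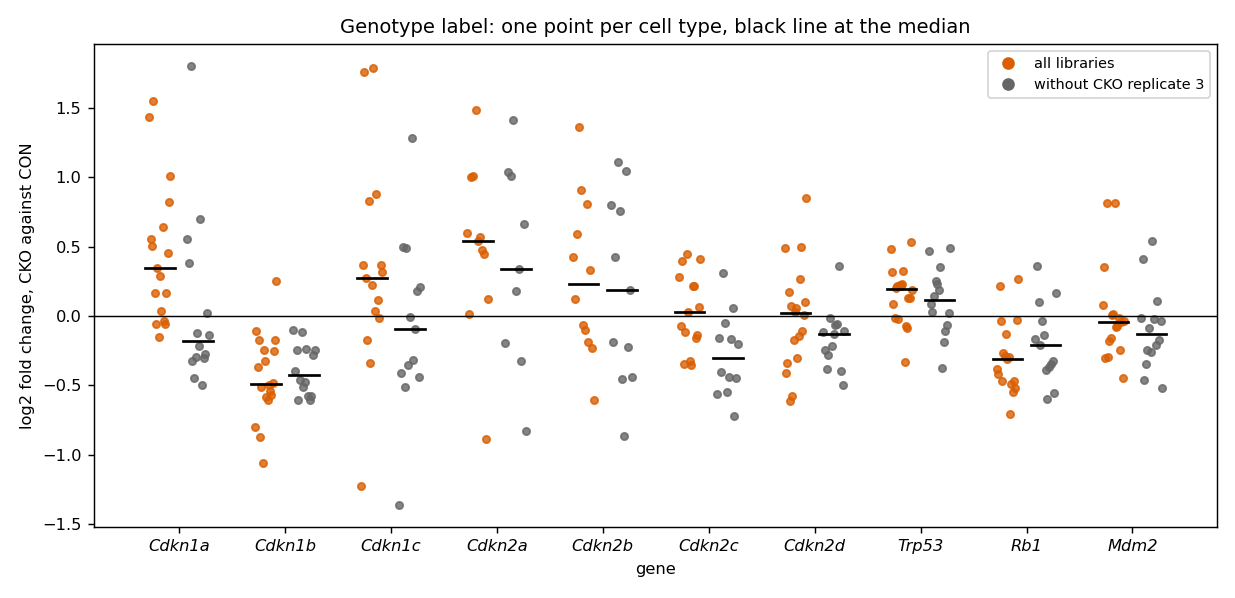
Log2 fold change of CKO against CON (vertical axis) for each gene, 1 point per cell type, with all libraries (orange) and without CKO replicate 3 (grey), and a black line at the median. No point passed the test; the Cdkn1a median moved from 0.35 to -0.18 without CKO replicate 3, and the Cdkn1b median from -0.49 to -0.43.

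The difference between CKO and CON in the chondrocyte lineage, which the recombinase targets per the methods, was set against that in endothelial-like cells. This interaction was tested over the 6 libraries. It was called for 0 of 10 members and for 0% of 15600 genes; 708 genes had an unadjusted p under 0.05, and DESeq2 called 0. Cdkn2a had the smallest unadjusted p of the members, with a difference of -0.97 ± 0.30 (unadjusted p = 0.00993, adjusted p = 1.00), followed by Cdkn1a at 1.2 ± 0.58 (unadjusted p = 0.0642). The genes of all the other lists, which include the imprinted growth, stress and rRNA-overlap genes, gave 0 calls in 1492 tests by cell type.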

How the data were processed

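The 6 libraries were 10x 3′ single-cell libraries of fracture callus. The deposited matrices hold raw UMI counts per gene and cell barcode, which the authors made with Cell Ranger, per the file headers in version 6.1.1 for CON and CKO replicate 1 and 6.1.2 for the rest, against GRCm38; no normalization had been applied. Totals ranged from 57626530 to 103784364 UMIs per library, which limits the precision of rare genes and small cell types. Replicate 3 of both groups lists fewer genes, and libraries were joined on the 52081 gene identifiers that all share. The 10 genes, gene lists and comparisons were chosen with earlier results of these data known.

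A barcode was kept if it held 500 UMIs, 200 genes and no more than 20% mitochondrial UMIs. Scrublet (scanpy 1.11.5) gave the doublet scores, and the highest 0.8% per 1000 cells of a library were removed, 3046 in all. From 2000 variable genes without the 10 genes, the p53 targets, mitochondrial and rRNA-overlapping genes, 30 components were integrated by RPCA (Seurat 5.3.0, R 4.3.3) and clustered with leidenalg 0.10.2 (20 neighbours, resolution 0.8), first all cells and then stromal-like cells. A cluster was named from at least 3 markers, each in 25% of its cells and 2 times the median cluster. Stromal types also needed a minimum share of their markers. Genes of the class had to be among the 10 leading genes, except where cycling markers were, and more were required in clusters of few UMIs. A cluster with more leading genes of a rival class stayed unnamed. These thresholds were set after the clusters were seen.

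UMIs were summed per library and type (at least 10 cells) and tested two-sided by the quasi-likelihood F test of edgeR 4.0.16 after filterByExpr and TMM scaling, with p adjusted over all genes by Benjamini-Hochberg and a threshold of 0.05. Comparisons of types used the library as a block; CKO was compared with CON without a block. The SE is the log2 fold change divided by the square root of F. Since types were defined on the same cells, those p-values measure agreement across libraries. The cycling comparisons in neutrophil-like and endothelial-like cells, the test of cycling by class and a scaling without TMM were added after the data were seen. The scripts were tested on simulated data. Named genes were all 10 members, up to 4 called genes of largest change per list and the 3 genes most alike in pattern, of which 1 is not reported here. Alternatives were DESeq2 1.42.0, other filters, resolutions, no integration, a replicate block and leaving out each library. Columns with no sample numbered 0. Gene positions were taken from GENCODE M21 and promoter windows from RefSeq.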

Additional observations from a re-analysis of the deposited data

Results flagged for a closer look

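The change of a member between cycling and other cells was not the same in the 4 classes compared (stromal-like, endothelial-like, macrophage-like and neutrophil-like cells; edgeR quasi-likelihood test of the difference itself over 22 pairs of sums, chosen after the cycling comparisons were seen). Cdkn2d differed most clearly between the classes (adjusted p = 1.74e-10), with rises of 1.54 to 1.97 in 3 classes and -0.66 in neutrophil-like cells. For Cdkn1b (adjusted p = 1.26e-08) the change was -1.73 in neutrophil-like cells and -0.25 to 0.09 elsewhere. For Cdkn1a (adjusted p = 8.05e-05) it ran from -0.71 in macrophage-like to 0.26 in endothelial-like cells. For Mdm2 (adjusted p = 0.000144) it ran from -1.18 in neutrophil-like to -0.04 in endothelial-like cells. For Rb1 (adjusted p = 0.00453) it ran from -0.69 in macrophage-like to 0.05 in neutrophil-like cells. For Cdkn2a (adjusted p = 0.00690) it was 0.60 in stromal-like and 1.35 in endothelial-like cells. For Cdkn1c (adjusted p = 0.00704) it ran from -2.00 in stromal-like to -0.63 in macrophage-like cells. For Trp53 (adjusted p = 0.0195) it ran from 0.44 in endothelial-like to 1.18 in neutrophil-like cells. Without CKO replicate 3, 6 of the 10 members passed this test. The part of maturation stages in the neutrophil-like values, or of mixed types in the stromal-like values, was not tested.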

How the results depend on the processing

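Over 48 results of a member in a comparison of cell types, all past the threshold except Cdkn2d in osteoblast-like cells, 807 values were computed under alternatives. Of these, 731 kept the direction and the side of the threshold, 72 lost the call and 4 turned in direction. The 4 were Cdkn1a in cycling against other neutrophil-like cells (0.0128 with stricter cell filters and 0.0116 scaled by library totals, a scaling chosen after seeing the data), Cdkn2d in the same comparison (0.37 at resolution 1.2) and Cdkn2d in osteoblast-like against fibroblast-like cells (-1.35 without integration, from 0.25 and not past the threshold). Of 455 values of members not called, 27 had the other sign. Calls that such members gained were not counted. They included Cdkn2b in HTC-like cells without CKO replicate 3 and Cdkn2a there without integration. With library totals they included Cdkn2c, Trp53 and Mdm2 in osteoblast-like cells and Rb1 in cycling neutrophil-like cells. The cause of these changes was not tested.

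The number of members called in HTC-like against chondrocyte-like cells was 5, with 1 called without integration and 0 to 6 when 1 library, or 1 replicate number in both groups, was left out. Over the same omissions 4 to 5 were called in osteoblast-like, 2 to 5 in pericyte-like and 4 to 6 in osteoclast-like cells, 4 to 8 in cycling macrophage-like, 7 in stromal-like, 5 to 6 in endothelial-like and 5 to 7 in neutrophil-like cells, 5 to 9 in the test of cycling by class and 10 in the test of any difference. Scaled by library totals, 8 members were called in osteoblast-like against fibroblast-like cells. At resolution 0.4 the osteoblast-like comparison gave no value, and at the chosen resolution the comparison with hematopoietic progenitor-like cells gave none.

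Between CKO and CON, no alternative called a member by cell type. In the interaction with lineage, 1 member was called without a filter on low counts and 0 otherwise. Over all genes and types, the calls between CKO and CON numbered 1, against 19 with the replicate number as a block, 37 with DESeq2 and 1112 without a filter on low counts. The labels do not say whether replicate numbers pair the mice. The deviations of same-numbered libraries correlated between -0.14 and 0.33 over 6 types checked, with all 3 pairs over 0.1 in neutrophil-like cells alone, and 1 to 3 of 6 libraries were closest to their own number. With the replicate block 0 members were called. Few cells per library limit the thin types named in the report, and counts of 1 to 10 UMIs do not show whether a gene is absent.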
